A study of Homo sapiens with 8 samples.

Results

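The genes described here are NFE2L2, which encodes the transcription factor NRF2, its inhibitor KEAP1, and 7 genes of detoxifying or NRF2-responsive proteins outside the glutathione and thioredoxin systems: NQO1, HMOX1, OSGIN1, AKR1B10, AKR1C1, AKR1C2 and AKR1C3. They were chosen by symbol, with earlier results of these data known, and are 9 of the 60230 genes in the count table. The cells were HepG2, a human liver cancer line, transfected to overexpress the cytochrome P450 enzyme CYP2C19 and kept under blasticidin to hold the transgene. Every group carried this transgene, and untransfected HepG2 cells were not analysed here. Of the 4 groups, 1 received the solvent DMSO and the others compound 4 (metylcresol in the labels), compound 5 (tetrabut) or compound 6 (cyclohexil), which are phenolic antioxidants used in plastics. Compounds 4 and 6 are both a pair of methylphenols joined by a methylene bridge, and they bear tert-butyl and cyclohexyl groups, respectively, whereas compound 5 has an ethane bridge between phenols that bear tert-butyl groups and no ring methyl group. Each compound was given for 24 h at its own IC50, so the concentrations were not identical, though the authors describe these IC50 values as comparable. The IC50 was measured after a longer exposure than the 24 h used here. Each group had 2 libraries, labelled day 1 and day 2 and called replicates 1 and 2 here. Apart from the day, nothing states that they came from separate cultures, so the p-values below measure the spread between these libraries, which may be in part technical.

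NRF2 is a basic leucine zipper protein that KEAP1, an adaptor of the CUL3 ubiquitin ligase, holds in the cytosol and marks for degradation. Electrophiles and oxidants modify cysteines of KEAP1, after which NRF2 accumulates, enters the nucleus, pairs with small MAF proteins and binds antioxidant response elements in its target genes. Much of this control acts on the NRF2 protein, which was not measured here. In liver cells the targets include quinone reductase, heme oxygenase and aldo-keto reductases, enzymes that reduce reactive carbonyls, quinones and steroids.

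Promoter sequences were taken from RefSeq (GRCh38.p14), in which 7 of the 9 genes had an entry, with 10 start sites in all. AKR1C1, AKR1C2 and AKR1C3 lie next to each other on chromosome 10, and their promoters are shown as a description. Whether position or promoter sequence had a part in their levels was not tested. The 250 bases before a start site of each gene follow, 5′ to 3′ on the strand of the gene. Capitals mark letters of AKR1C2 and AKR1C3 that differ from AKR1C1, or are inserted, within a pairwise alignment. Letters beyond either end of AKR1C1 have no partner and stay in lower case. Letters of AKR1C1 that are missing from the other genes are not marked.
AKR1C1, chr10:4963165-4963414, plus strand: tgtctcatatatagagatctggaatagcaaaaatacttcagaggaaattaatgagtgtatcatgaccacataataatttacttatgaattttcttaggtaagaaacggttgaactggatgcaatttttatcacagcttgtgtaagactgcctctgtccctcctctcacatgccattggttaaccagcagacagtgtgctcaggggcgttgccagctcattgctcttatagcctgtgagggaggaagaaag
AKR1C2, chr10:5003858-5004107, minus strand: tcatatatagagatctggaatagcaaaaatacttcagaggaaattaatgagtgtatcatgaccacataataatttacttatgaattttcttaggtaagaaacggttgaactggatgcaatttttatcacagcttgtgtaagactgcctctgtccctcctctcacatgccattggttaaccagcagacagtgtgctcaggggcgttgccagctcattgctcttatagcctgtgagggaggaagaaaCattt
AKR1C3, chr10:5048531-5048780, plus strand: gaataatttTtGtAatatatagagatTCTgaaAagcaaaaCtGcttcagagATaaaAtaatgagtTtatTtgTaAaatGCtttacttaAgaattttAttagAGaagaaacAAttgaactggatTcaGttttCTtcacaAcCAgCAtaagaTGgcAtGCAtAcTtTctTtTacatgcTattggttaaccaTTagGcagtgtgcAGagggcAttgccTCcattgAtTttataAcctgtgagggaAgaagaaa
The AKR1C2 promoter matched that of AKR1C1 at 245 of 246 aligned positions (99.6%). The 1 mismatch was the last aligned letter, at the edge of the window. The AKR1C3 promoter matched that of AKR1C1 at 185 of 241 (76.8%, with 9 gap positions). The promoter of the second AKR1C3 start site matched it at 184 of 234 (78.6%, with 16 gap positions).

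The 300 bases around each start site, 250 before and 50 after it, were searched on both strands for the core of the antioxidant response element, TGACNNNGC, and for TGANTCA, the AP-1 type element. A single stretch can match both patterns. The first was found in 13.3% and the second in 7.71% of the 35116 RefSeq promoter windows. HMOX1 and AKR1B10 had no entry and were not searched. Among the 7 genes searched, KEAP1 and OSGIN1 had a match. The shares above are per window, and the 7 genes have 10 windows, so each pattern was found in 1 of 10 windows. KEAP1 had 2 matches to TGACNNNGC at its second start site (chr19:10502722-10503021, minus strand), 1 on each strand, and OSGIN1 had 1 match to TGANTCA (chr16:83952990-83953289, plus strand). The matches follow in capitals on the strand of the motif, with 10 bases on either side.
KEAP1, match starting at position −54 from the start site, gene strand: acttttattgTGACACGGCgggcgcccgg
KEAP1, match at position −31, opposite strand: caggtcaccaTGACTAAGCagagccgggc
OSGIN1, match at position −97, gene strand: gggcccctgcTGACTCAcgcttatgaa
A match describes letters in the window only, sequence farther from the start sites was not searched, and binding was not measured.

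Between 9791659 and 17814595 read pairs per library were assigned to genes, and all 9 genes passed the filter on low counts, as did 13400 genes in all. The lowest count of any of the 9 genes in a library was 416. The hepatocyte label was checked on 11 marker genes, and all 11 were expressed, with albumin (ALB) between 14369 and 20660.1 CPM (counts scaled to the size of the library). Their summed level was 56643 and 52574 CPM in the DMSO libraries and 36839 to 46835 CPM in the 6 treated libraries. Of markers of other cell types, PTPRC, CD3E, KDR, COL1A2 and DCN had no count in any library. The 4 endothelial markers summed to 0.740 to 2.08 CPM, the 5 mesenchymal markers to 5.11 to 25.4 CPM, nearly all from PDGFRB, and the 5 leukocyte markers to 1420.1 to 2189 CPM, nearly all from LYZ. The share of counts on 13 mitochondrially encoded genes was 5.78% and 4.50% under DMSO, 4.48% and 3.41% under compound 4, 3.60% and 3.09% under compound 5, and 5.80% and 4.77% under compound 6. CYP2C19 itself had 27.7 and 16.4 CPM under DMSO, 31.4 and 44.3 under compound 4, 52.8 and 37.96 under compound 5, and 23.9 and 21.2 under compound 6. In the edgeR test described below, its log2-fold changes against DMSO were 0.79 (adjusted p = 0.086), 1.05 (0.040) and 0.04 (0.95), respectively. DESeq2 called it under compounds 4 (adjusted p = 0.029) and 5 (0.0013). Over the 15 fits tried, the change under compound 4 was 0.46 to 1.20, and most fits did not call it. Under compound 5 the change was 0.71 to 1.45 over these fits, not all of which called it. Counts from the transgene and from the endogenous gene cannot be told apart. The part of these differences in the results below was not tested, and in bulk RNA fewer cells of a kind and less RNA per cell cannot be told apart.

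The first question was how each compound at its IC50 moved the 9 genes against DMSO. Levels are CPM scaled with TMM, changes are log2-fold changes, and p-values come from the quasi-likelihood test of edgeR, adjusted by Benjamini-Hochberg over the 13400 genes. The 4 aldo-keto reductase genes and OSGIN1 rose under compounds 4 and 5. KEAP1 rose slightly under both, and HMOX1 rose under compound 4. AKR1B10 was the 1 gene past the threshold of 0.05 under compound 6. In counts, 7 of the 9 genes passed under compound 4, 6 under compound 5 and 1 under compound 6, and none fell. Of all genes tested, 5.60%, 5.35% and 0.493% passed as higher, respectively. The DESeq2 Wald test gave 7, 7 and 2 of the 9 genes, out of 1384, 1284 and 518 genes called in either direction. The median log2-fold change of the 9 genes was 0.77, 0.63 and 0.40, beside 0.01, 0.00 and 0.02 over all genes. Since the 9 genes were chosen with earlier results of these data known, these counts and medians describe them and are not a test. With replicate 2 of DMSO left out, 1, 0 and 0 of the 9 genes passed, and with replicate 1 of DMSO left out, 5, 4 and 0. Under compound 5, 3 passed without its replicate 1, and under compound 6, 0 passed without either of its libraries. In these fits with a library left out, the numbers of all genes past the threshold fell as well. The 3 comparisons share the DMSO libraries.

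**Figure D1:**
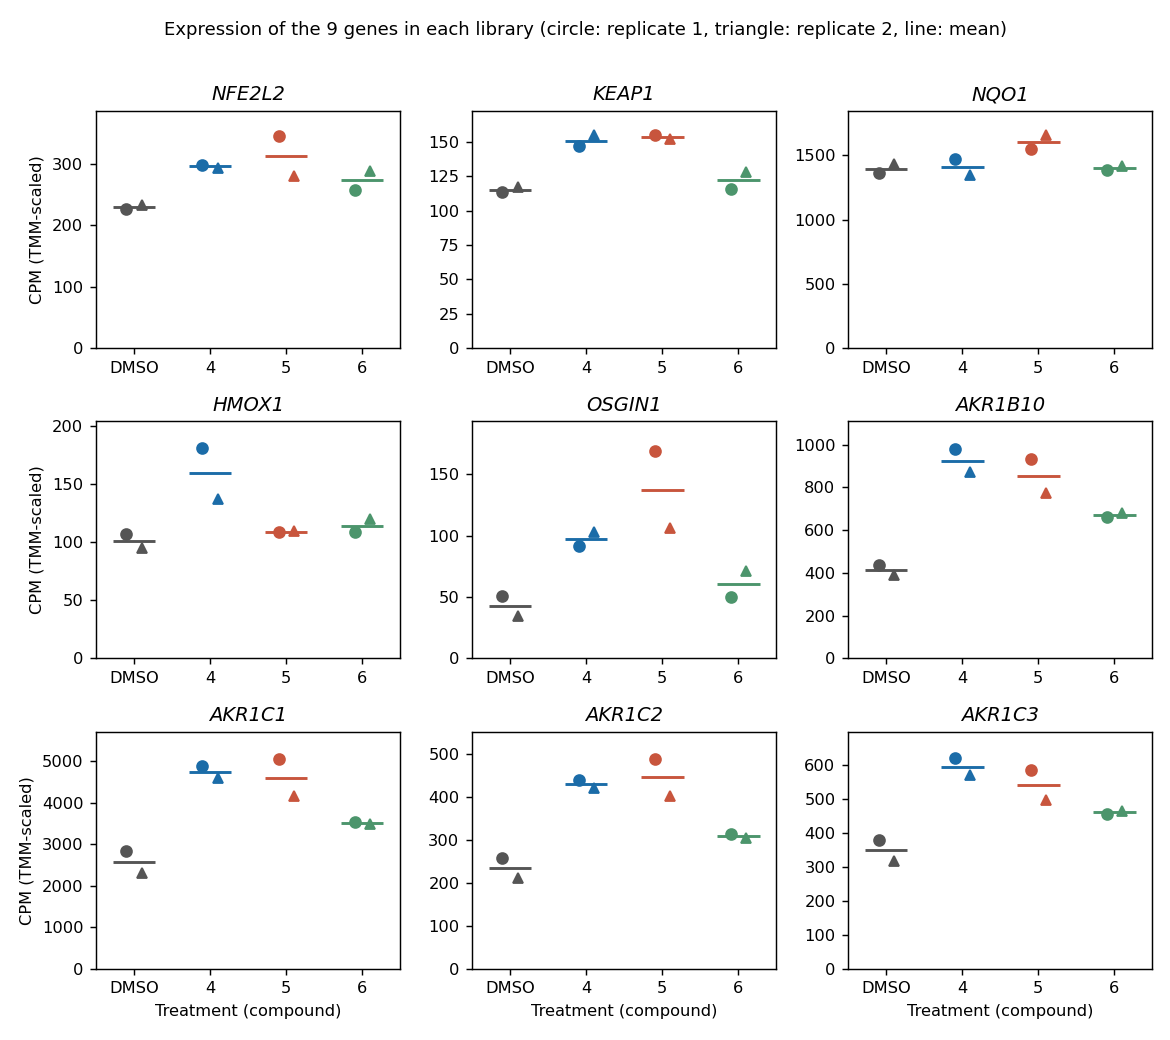
Level of each of the 9 genes in each library, in TMM-scaled CPM on linear axes from 0 with a separate scale per gene. Circles are replicate 1, triangles replicate 2 and lines the mean of a group, and the libraries of compounds 4 and 5 lie above both DMSO libraries for OSGIN1 and the AKR genes, while those of NQO1 under compounds 4 and 6 overlap with DMSO.

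Both treated libraries lay above both DMSO libraries in 8 of the 9 genes under compound 4, in 9 under compound 5 and in 6 under compound 6. Of all genes tested, 30.4%, 31.0% and 29.3% did so. NQO1 overlapped with DMSO under compound 4, and KEAP1, NQO1 and OSGIN1 overlapped under compound 6.

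Levels were set side by side between genes per kilobase of the union of all annotated exons of a gene. This is not the length of the transcripts expressed, and the order depends on it: before division AKR1C1 had 2573 CPM under DMSO and NQO1 1398. On this scale, under DMSO, NQO1 had the highest level with 429 CPM per kb, followed by AKR1C1 with 294 and AKR1B10 with 236. AKR1C3 had 76.9, and HMOX1, NFE2L2, AKR1C2 and KEAP1 had between 42.1 and 30.6. OSGIN1 was lowest with 12.3 CPM per kb. Under compound 4 AKR1C1 (540.2 CPM per kb) and AKR1B10 (531) stood above NQO1 (433).

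NFE2L2 (ENSG00000116044, chr2:177227595-177392697, minus strand) had 226 and 234 CPM in the DMSO libraries. It had 299 and 294 CPM under compound 4, 346 and 279.9 under compound 5, and 258 and 289 under compound 6. Every treated library was above both DMSO libraries, and the replicates of compound 5 differed the most. The log2-fold changes were 0.37 (SE 0.12, adjusted p = 0.084), 0.44 (SE 0.12, adjusted p = 0.052) and 0.25 (SE 0.12, adjusted p = 0.30). None passed the threshold. With the replicate number as a block, the change under compound 5 passed (adjusted p = 0.048), as it did with DESeq2 (0.014). Without replicate 1 of compound 5 its log2-fold change was 0.27, and without replicate 2 it was 0.59 (adjusted p = 0.017). For compound 4 the change of NFE2L2 passed when replicate 1 or 2 of compound 5 was left out of the shared fit (adjusted p = 0.047 and 0.044). The gene overlaps AGPS on the opposite strand, which had 24590 counts over the 8 libraries beside 26863 for NFE2L2, so its counts are uncertain if the strand was not used.

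KEAP1 (ENSG00000079999, chr19:10486120-10503741, minus strand), the gene of the inhibitor, had 113 and 117 CPM under DMSO. Its levels were 147 and 155 CPM under compound 4, 155 and 152 under compound 5, and 116 and 128 under compound 6. The libraries of compounds 4 and 5 lay close together and above DMSO, while those of compound 6 overlapped with DMSO. KEAP1 rose 1.31-fold under compound 4 (95% interval 1.12 to 1.53, adjusted p = 0.040) and 1.33-fold under compound 5 (1.14 to 1.56, adjusted p = 0.037). Under compound 6 the fold was 1.06 (0.906 to 1.24, adjusted p = 0.70). Both calls were close to the threshold. For compound 4 the call was lost when any 1 library of DMSO, compound 4 or compound 6 was left out, with an adjusted p between 0.063 and 0.22. For compound 5 it was lost without either DMSO library, replicate 1 of compound 5 or either library of compound 6 (adjusted p between 0.055 and 0.19). In these fits the log2-fold change stayed between 0.35 and 0.41 for compound 4, and between 0.38 and 0.44 for compound 5. Both calls were also lost in a fit of only the 4 libraries compared (adjusted p = 0.057 and 0.059).

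NQO1 (ENSG00000181019, chr16:69706996-69726951, minus strand) encodes the quinone reductase often used as a readout of NRF2. It had 1365 and 1429.7 CPM under DMSO, 1472 and 1344 under compound 4, 1552 and 1663 under compound 5, and 1385 and 1420.3 under compound 6. The libraries of compounds 4 and 6 overlapped with DMSO, and those of compound 5 lay above it. The log2-fold changes were 0.01 (95% interval −0.20 to 0.22), 0.20 (−0.01 to 0.41) and 0.01 (−0.21 to 0.22), with adjusted p = 0.95, 0.19 and 0.98. None of the 15 fits tried called NQO1 under any compound. At this depth and spread, a log2-fold change of NQO1 above 0.41 lay outside the interval of each compound.

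HMOX1 (ENSG00000100292, chr22:35380361-35394214, plus strand) encodes heme oxygenase, which opens the heme ring. The DMSO libraries had 107 and 95.2 CPM, and those of compound 4 had 181 and 137. Compound 5 gave 109 CPM in both libraries, and compound 6 gave 108 and 119.9. Compound 4 was clearly apart from DMSO, whereas the lower libraries of compounds 5 and 6 exceeded the higher DMSO library by under 2 CPM. HMOX1 rose 1.57-fold under compound 4 (95% interval 1.26 to 1.95, adjusted p = 0.022). The folds under compounds 5 and 6 were 1.08 (0.867 to 1.34, adjusted p = 0.64) and 1.13 (0.906 to 1.40, adjusted p = 0.54). The call under compound 4 was lost without replicate 1 of DMSO (log2-fold change 0.74, adjusted p = 0.075), without replicate 2 of DMSO (0.57, adjusted p = 0.20) and without replicate 1 of compound 4 (0.42, adjusted p = 0.086), against 0.65 with all libraries.

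OSGIN1 (ENSG00000140961, chr16:83948282-83966332, plus strand) encodes an oxidative stress-induced growth inhibitor. It was the gene with the fewest counts of the 9. It had 50.5 and 34.8 CPM under DMSO, 91.3 and 103 under compound 4, 169 and 106 under compound 5, and 50.2 and 71.3 under compound 6. The libraries of compounds 4 and 5 were all above 90 CPM, and those of compound 6 overlapped with DMSO. OSGIN1 rose 2.28-fold under compound 4 (95% interval 1.54 to 3.37, adjusted p = 0.021) and 3.23-fold under compound 5 (2.18 to 4.78, adjusted p = 0.0083). Of all genes tested, 0.925% had a higher log2-fold change under compound 5. For compound 6 the fold was 1.43 (0.962 to 2.12, adjusted p = 0.31). Without replicate 2 of DMSO, the lower of both, the calls were lost under compound 4 (log2-fold change 0.94 in place of 1.19, adjusted p = 0.19) and compound 5 (1.45 in place of 1.69, adjusted p = 0.089). The call under compound 4 was also lost without its replicate 2 (adjusted p = 0.12). OSGIN1 shares 12.9% of its 31-base words with AC009119.2, a gene annotated on the same strand. The identifier of AC009119.2 is not in the count table, so it has no counts there to set beside those of OSGIN1.

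AKR1B10 (ENSG00000198074, chr7:134527592-134541408, plus strand) encodes an aldo-keto reductase that reduces aliphatic and aromatic aldehydes and retinal. It had 435 and 389.6 CPM under DMSO. Its levels were 979 and 872 CPM under compound 4, 934 and 772 under compound 5, and 663 and 681 under compound 6. No treated library came near the DMSO libraries, and those of compound 6 lay between DMSO and the other compounds. AKR1B10 rose 2.24-fold under compound 4 (95% interval 1.86 to 2.71, adjusted p = 0.0020), 2.07-fold under compound 5 (1.71 to 2.50, adjusted p = 0.0031) and 1.63-fold under compound 6 (1.35 to 1.96, adjusted p = 0.048). The call under compound 4 held in all 15 fits tried. The call under compound 5 was lost without replicate 2 of DMSO (adjusted p = 0.054). The call under compound 6 was lost without either DMSO library (adjusted p = 0.15 and 0.44), without either library of compound 6 (0.095 and 0.33) and with DESeq2's size factors (0.052), and the log2-fold change was 0.63 to 0.77 in these fits.

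AKR1B10 shares 18.8% of its 31-base words with its neighbour AKR1B15 and 13.2% with the pseudogene AKR1B10P1, so part of its reads could be assigned to either. AKR1B15 had log2-fold changes of 1.03 under compound 4, 1.11 under compound 5 and 0.28 under compound 6, with adjusted p = 0.36, 0.29 and 0.87.

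AKR1C1 (ENSG00000187134, chr10:4963253-4983283, plus strand), a reductase that inactivates progesterone, had the most counts of the 9 genes. It had 2829.7 and 2315 CPM under DMSO, 4884 and 4586 under compound 4, 5045 and 4151 under compound 5, and 3534 and 3488 under compound 6. Every treated library was above DMSO, and every library of compounds 4 and 5 was above those of compound 6. AKR1C1 rose 1.84-fold under compound 4 (95% interval 1.51 to 2.24, adjusted p = 0.0056) and 1.79-fold under compound 5 (1.47 to 2.17, adjusted p = 0.0084). The fold under compound 6 was 1.36 (1.12 to 1.66, adjusted p = 0.12), and DESeq2 called it (adjusted p = 0.031).

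AKR1C2 (ENSG00000151632, chr10:4987400-5018031, minus strand), which acts on dihydrotestosterone and bile acids, had 259 and 211 CPM under DMSO. It had 439 and 421 CPM under compound 4, 488 and 403 under compound 5, and 313 and 306 under compound 6. The order of the groups was the same as that of AKR1C1, except that the mean of compound 5 was above that of compound 4. AKR1C2 rose 1.83-fold under compound 4 (log2-fold change 0.87, SE 0.13, adjusted p = 0.0063) and 1.90-fold under compound 5 (95% interval 1.55 to 2.32, adjusted p = 0.0062). The fold under compound 6 was 1.32 (1.08 to 1.61, adjusted p = 0.15).

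AKR1C3 (ENSG00000196139, chr10:5035354-5107686, plus strand), a prostaglandin F synthase that also makes testosterone from androstenedione, had 379 and 318 CPM under DMSO. It had 619 and 570.4 CPM under compound 4, 584 and 497 under compound 5, and 455 and 466 under compound 6. Again the libraries of compound 6 lay between DMSO and the other compounds. AKR1C3 rose 1.71-fold under compound 4 (95% interval 1.41 to 2.06, adjusted p = 0.0076) and 1.55-fold under compound 5 (1.28 to 1.87, adjusted p = 0.017). The fold under compound 6 was 1.32 (1.09 to 1.59, adjusted p = 0.13).

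The calls of the AKR1C genes rested in part on replicate 2 of DMSO, the lower of both DMSO libraries for all 3 genes. Without it, the adjusted p under compound 4 was 0.078 for AKR1C1, 0.085 for AKR1C2 and 0.10 for AKR1C3, with log2-fold changes of 0.74, 0.73 and 0.65. Under compound 5 it was 0.086, 0.082 and 0.15, with 0.70, 0.79 and 0.52. Without replicate 1 of compound 5 the calls of AKR1C1 (0.062) and AKR1C3 (0.13) under that compound were lost, as was that of AKR1C3 without replicate 1 of DMSO (0.068).

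**Figure D2:**
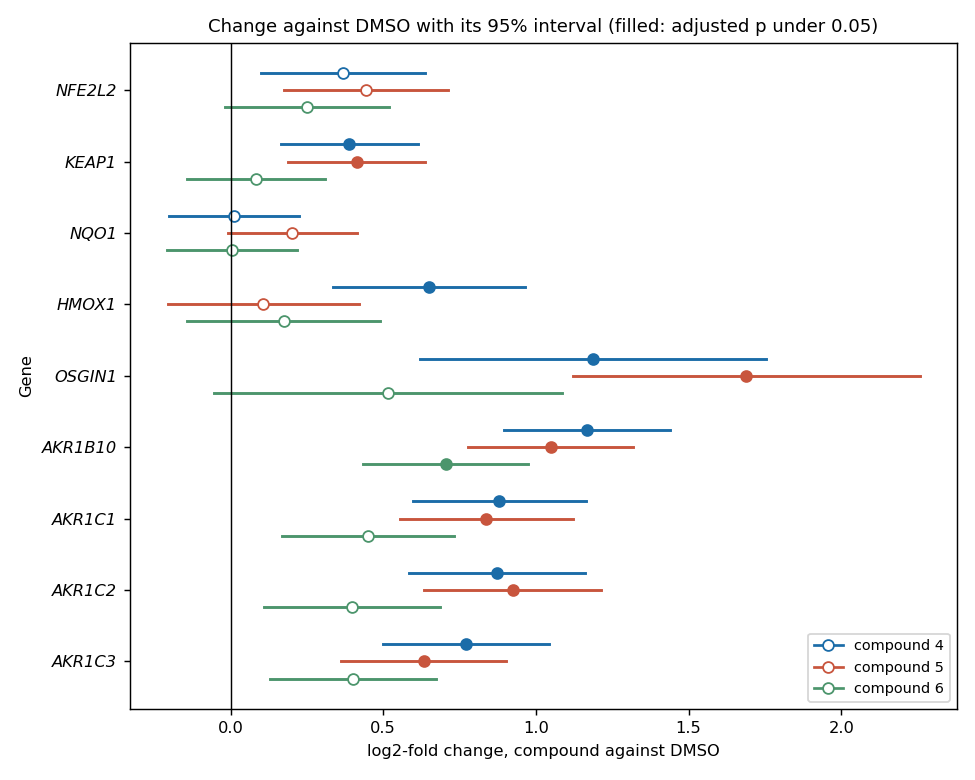
Log2-fold change of each gene under compound 4, 5 or 6 against DMSO on the x axis, with the 95% interval as a line, from 1 edgeR fit of all 8 libraries. Filled circles have an adjusted p under 0.05, which holds for 7 genes under compound 4, 6 under compound 5 and AKR1B10 under compound 6.

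Reads of AKR1C1 and AKR1C2 are hard to tell apart. Of the 31-base words in the exons of AKR1C1, 35.1% also occur in AKR1C2, and 47.3% of those of AKR1C2 occur in AKR1C1. For AKR1C3 these shares were 5.04% with AKR1C2 and 4.91% with AKR1C1. Salmon divides shared reads between transcripts by estimation, so single AKR1C values are uncertain to that extent. Across the 8 libraries AKR1C1 took 81.4% to 82.5% of the summed counts of the 3 genes, AKR1C2 7.18% to 7.99% and AKR1C3 9.55% to 11.2%. With the 3 counts added up and tested as 1 gene, the log2-fold change was 0.87 under compound 4 (adjusted p = 0.0056), 0.82 under compound 5 (0.0087) and 0.44 under compound 6 (0.12), and the calls were the same.

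The next question was whether the compounds differed from each other. None of the 27 comparisons of the 9 genes between compounds passed the threshold over all genes. Of all genes tested, 0.313% passed for compound 4 against 5, 1.03% for compound 6 against 5 and 0% for compound 4 against 6. At an unadjusted p under 0.05 the counts were 1, 5 and 7 of the 9 genes, beside 16.2%, 18.5% and 7.05% of all genes. The DESeq2 test with adjustment called 1, 2 and 0 of the 9 genes, out of 194, 364 and 59 genes called in all. The median log2 difference of the 9 genes was −0.02, −0.33 and 0.43, respectively.

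HMOX1 was higher under compound 4 than under compound 5 by 0.54 on the log2 scale (95% interval 0.23 to 0.85), with an adjusted p of 0.13 (DESeq2: 0.041). The lower library of compound 4, with 137 CPM, was above both libraries of compound 5, with 109 CPM each. For the other 8 genes the interval of compound 4 against 5 included 0. It was widest for OSGIN1 (−1.04 to 0.04), and for the AKR genes it lay within −0.34 to 0.41. These bounds limit the difference in AKR transcripts between both compounds at the doses used, and they do not show that the compounds act alike.

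OSGIN1 had the largest difference between compounds, with a log2 difference of −1.17 for compound 6 against 5 (95% interval −1.73 to −0.62, adjusted p = 0.060). The libraries were at 50.2 and 71.3 CPM under compound 6 and 169 and 106 under compound 5. It passed with DESeq2 (adjusted p = 2.7e-05), with a minimum of 10 counts in every library (0.043) and without replicate 2 of compound 5 (0.034). AKR1C2 was lower under compound 6 than under compound 5 by a log2 difference of −0.53 (−0.81 to −0.24, adjusted p = 0.080), and it passed with the replicate number as a block (0.038) and with DESeq2 (0.0063). The differences of AKR1C1, AKR1B10, KEAP1 and AKR1C3 were −0.39, −0.34, −0.33 and −0.23, with adjusted p between 0.13 and 0.34.

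Compounds 4 and 6 have the same methylene-bridged methylphenol core and differ in the tert-butyl or cyclohexyl group. All 9 genes had the higher estimate under compound 4, as did 48.3% of all genes tested, and the adjusted p was between 0.39 and 0.99. The log2 difference was 0.46 for AKR1B10 (95% interval 0.19 to 0.73), 0.43 for AKR1C1 (0.15 to 0.71), 0.47 for AKR1C2 (0.19 to 0.76) and 0.37 for AKR1C3 (0.10 to 0.64). Both libraries of compound 4 were above both of compound 6 in each of the 4 AKR genes, as in 19.0% of all genes tested. For HMOX1 the difference was 0.48 (0.16 to 0.79) and for OSGIN1 0.67 (0.12 to 1.23). NQO1 differed by 0.01 (−0.21 to 0.22), so a change of over 0.22 on the log2 scale lay outside its interval.

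**Figure D3:**
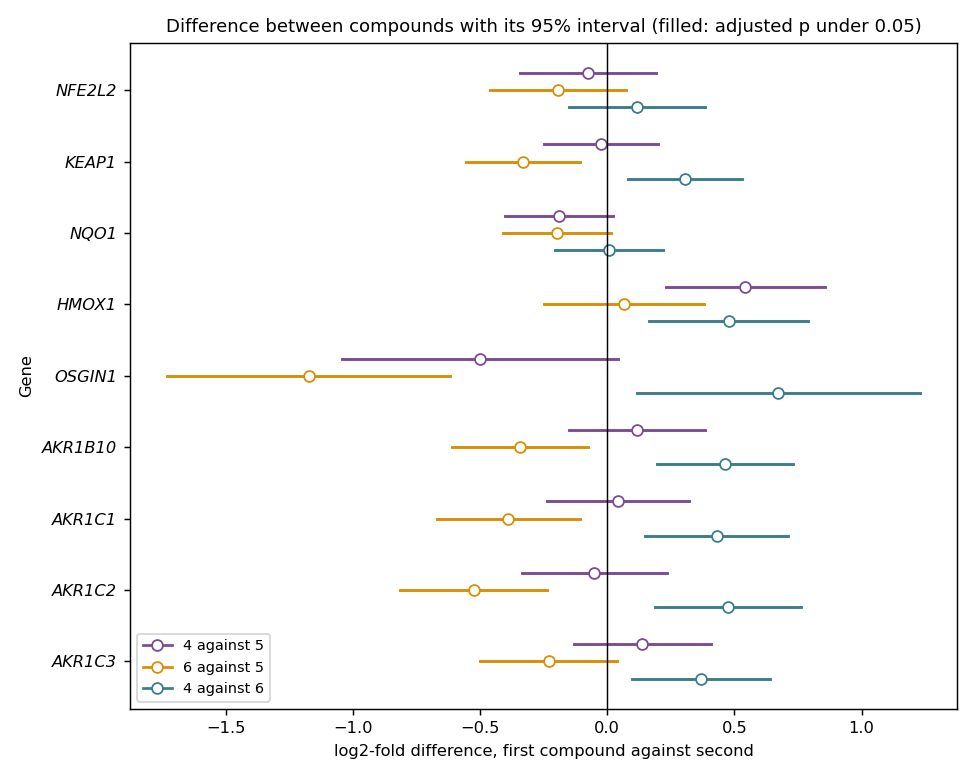
Log2 difference of each gene between compounds (4 against 5, 6 against 5, 4 against 6) on the x axis, with the 95% interval as a line. No circle is filled, as none of the 27 comparisons had an adjusted p under 0.05; the OSGIN1 difference of −1.17 for compound 6 against 5 lies farthest from 0.

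The 9 genes varied together to different extents over the 8 libraries. The 4 AKR genes had Pearson correlations of 0.96 to 0.99 among themselves in log2 CPM, and OSGIN1 correlated with them at 0.87 to 0.95. HMOX1 correlated with the AKR genes at 0.57 to 0.72, and NQO1 with the other 8 genes at −0.09 to 0.53. These values describe 8 libraries of 4 groups, so they carry the group differences as well. The nearest genes outside the 9 were taken from 12722 genes, a number that includes the 9. PTGR1, which encodes prostaglandin reductase, was the nearest to AKR1C1 (r = 0.998) and AKR1C3 (0.99) and was second for AKR1C2 (0.99). AKR1C1 was followed by MIR4435-2HG (0.99) and TMSB10 (0.98), which were also among the 3 nearest to AKR1C2 (0.99 and 0.98), and AKR1C3 by VAT1 (0.99) and ZDHHC7 (0.98). TEX19 (0.99), TUBA4A (0.99) and GLRX (0.98) were nearest to AKR1B10, and JUN, ILRUN and FOXP4 to OSGIN1 (0.99 each). NFE2L2 was nearest to COQ10B, ZNF697 and EIF2A (0.98 each), and KEAP1 to SLC4A2 (0.996), SLC30A1 (0.99) and CHMP7 (0.98). For HMOX1 these were FAM174A, NDUFV2 (0.97 each) and FLVCR2 (0.95), and for NQO1 EXOSC1, ENSG00000268230 and DUSP7 (0.95 each).

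Other genes of the pathway were read from 5 lists. As lower, 3.91%, 2.95% and 0.0821% of all genes tested passed under compounds 4, 5 and 6. Of 17 regulators and partners of NRF2, all tested, 4 rose and 1 fell under compound 4, 5 rose and 1 fell under compound 5, and 1 rose under compound 6. The small MAF genes MAFF, MAFG and MAFK, whose proteins pair with NRF2, rose under compounds 4 and 5. SQSTM1, whose protein p62 binds KEAP1, was highest in the list under all 3 compounds and past the threshold in each, with 1.40 under compound 6 (adjusted p = 0.048, with the replicate block 0.056). MAFK rose by 1.34 (adjusted p = 0.029) and 1.61 (0.018) on the log2 scale. BACH1, a repressor at the same elements, rose under compound 5 (0.83, adjusted p = 0.038). The lowest was AMER1 under compounds 4 (−0.60, adjusted p = 0.033) and 6 (−0.45, adjusted p = 0.15), and NFE2L1 under compound 5 (−0.48, adjusted p = 0.020). The median over the list was 0.08, 0.08 and 0.01 under compounds 4, 5 and 6, beside 0.01, 0.00 and 0.02 over all genes. Without replicate 2 of DMSO, 0 of the 17 genes passed under each compound, and without replicate 1 of DMSO it was 1, 2 and 0. Under compound 4, 1 passed without its replicate 2, under compound 5, 2 passed without its replicate 1, and under compound 6, 0 passed without its replicate 2.

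Of 12 NRF2 targets in the glutathione and thioredoxin systems, 11 were tested (GSTP1 was not). GCLC, GCLM, TXNRD1, SRXN1 and SLC7A11 rose under compounds 4 and 5, GSR rose under compound 5, and GSTA4 fell under compound 5 (−0.99, adjusted p = 0.039). SLC7A11, the cystine transporter, was highest under each compound, with log2-fold changes of 1.14 (adjusted p = 0.037), 1.70 (0.011) and 1.67 (0.048, with the replicate block 0.058), and it was the 1 gene of this list past the threshold under compound 6. GSTA4 was also the lowest under compounds 4 (−0.62, adjusted p = 0.14) and 6 (−0.32, adjusted p = 0.51). The medians were 0.28, 0.55 and 0.24. Without either DMSO library, 0 of the 11 genes passed under any compound, and the same held under compound 4 without its replicate 2 and under compound 5 without its replicate 1. Under compound 6, 0 genes passed with the replicate block, with DESeq2's size factors or without replicate 2 of compound 6, 2 passed without replicate 2 of compound 4, and 5 passed with DESeq2 or without either library of compound 5.

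Of 6 targets that supply NADPH, the cofactor of NQO1 and the AKR enzymes, 5 were tested (ME1 was not), and none rose. IDH1 fell under compounds 4 (−1.05, adjusted p = 0.0063) and 5 (−0.92, adjusted p = 0.012). It was also lowest under compound 6 (−0.44, adjusted p = 0.17). The highest were TKT under compounds 4 (0.27, adjusted p = 0.10) and 5 (0.30, adjusted p = 0.076), and TALDO1 under compound 6 (0.12, adjusted p = 0.54). The medians were 0.13, 0.01 and 0.10. With replicate 2 of DMSO left out, 0 genes of this list passed, and under compound 4 also without its replicate 2, and under compound 5 without replicate 1 of DMSO or of compound 5.

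Of 26 other NRF2 targets, 25 were tested (CBR3 was not), and 7, 6 and 2 rose under compounds 4, 5 and 6, while none passed as lower. ABCC2, an export pump of conjugates, rose under all 3 compounds, by 0.92 (adjusted p = 0.0052), 0.96 (0.0056) and 0.82 (0.042). The long non-coding RNA LUCAT1 had the highest changes, with 2.02 (adjusted p = 0.022), 1.93 (0.029) and 2.34 (0.051). The export pump ABCC3 rose under compounds 4 (1.25, adjusted p = 0.0016) and 6 (1.24, adjusted p = 0.0068), with −0.07 (adjusted p = 0.72) under compound 5. The lowest were CBR1 under compounds 4 (−0.42, adjusted p = 0.21) and 6 (−0.21, adjusted p = 0.61) and PIR under compound 5 (−0.47, adjusted p = 0.056), which passed as lower with the replicate block (0.039). The block also brought ABCC1 (adjusted p = 0.046), ALDH3A1 (0.048) and SLC6A6 (0.026) past the threshold as higher under compound 4, and ABCC1 (0.049) and EPHX1 (0.046) under compound 5. The medians were 0.45, 0.37 and 0.30, and 22, 17 and 22 of the 25 genes had a positive estimate. Leaving out replicate 2 of DMSO left 1, 0 and 0 genes past the threshold, and leaving out replicate 1 of DMSO left 3, 0 and 1. Under compound 4, 2 genes passed without its replicate 2. Under compound 5, 1 gene passed without its replicate 1. Under compound 6, 1 and 0 genes passed without its replicate 1 or 2.

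Of 9 other aldo-keto reductase genes, 5 were tested (AKR1C4, AKR1E2, AKR7A3 and AKR7L were not), and none rose. AKR1D1, the steroid beta-reductase of bile acid synthesis, fell under compound 4 (−1.66, adjusted p = 0.014), and had −0.80 (adjusted p = 0.10) and −0.67 (0.26) under compounds 5 and 6. It did not pass without replicate 2 of DMSO or replicate 2 of compound 4. Without replicate 2 of compound 5, 1 gene of the list passed under that compound, AKR7A2, which had −0.51 (adjusted p = 0.12) with all libraries. AKR1B15 was highest in the list under all 3 compounds, with the values given above. The medians were −0.06, −0.04 and −0.13.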

How the data were processed

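RNA from 8 samples of CYP2C19-overexpressing HepG2 cells was analysed. The authors checked reads with FastQC 0.12.0, quantified directional paired-end libraries with Salmon 1.5.0 on a GENCODE transcriptome (GRCh38), summarized to genes with tximeta, and deposited estimated counts as whole numbers without normalization. The column names of 2 libraries (replicate 1 of DMSO and of compound 4) contain the word merged, and what was merged is not stated there. All columns were mapped to samples (0 were not). The strand setting is not given in the sources used here. The authors tested with DESeq2 1.38.3 and shrank fold changes, and no shrinkage was used here.

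The test was that of edgeR 4.0.16 in R 4.3.3 on the estimated counts (TMM, filterByExpr with a minimum count of 10, quasi-likelihood test, 1 fit of 8 samples, Benjamini-Hochberg adjustment over 13400 genes, threshold 0.05). Standard errors are the log2-fold change divided by the root of the F statistic, and 95% intervals use the fitted degrees of freedom. With 2 libraries a group, no permutation test could pass the threshold, and none was run. The scripts were tested on simulated counts. The range of the library totals is given in the report, and intervals cover the spread between libraries. Symbols matched for 60089 genes, and positions, exon lengths and shared 31-base words are from GENCODE 29 on GRCh38. This is a different release from that of the authors' index. Correlations used log2 CPM with a prior count of 2. Python 3.11.15 was used for tables and figures.

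The replicate number is the day in the labels, so replicates of the same number may be paired. The main test had no term for the replicate number, and a fit with it as a block was run as an alternative. Over 13400 genes, which are not independent, the differences between replicates 2 and 1 of 2 groups correlated at −0.15 to 0.24, and values with the number as a block are given where they change a call. The alternatives were DESeq2 1.42.0, the block, DESeq2's size factors, no filter, at least 10 counts in every sample, a fit of the 4 samples compared, each library or replicate number left out, and AKR1C counts added up. Counting list genes under these was added after seeing the data. The 9 genes and the lists were chosen with earlier results of these data known. Besides the 9 genes, those named are the highest and lowest of each list under each compound, those past the threshold under all 3, and the 3 genes with the highest Pearson correlation with each of the 9 over the 8 samples. The correlated genes came from 12722 with a mean of at least 1 CPM, a number that includes the 9, which were not eligible. Further list genes past the threshold, with or without the block, and genes that share sequence or strand with a named gene, were named after their values were seen. The result of a single list gene is not reported here.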

Additional observations from a re-analysis of the deposited data

How the results depend on the processing

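The numbers of genes past the threshold depended on single libraries and on the filter. Leaving out 1 library gave 43 to 1681 genes for compound 4 against DMSO (1275 with all), 46 to 1814 for compound 5 (1112), 2 to 432 for compound 6 (77), 9 to 25 for compound 4 against 5 (42), 0 to 105 for compound 6 against 5 (138) and 0 to 13 for compound 4 against 6 (0, with 945 at an unadjusted p under 0.05). Of the 9 genes, 1 to 8 passed under compound 4, 0 to 7 under compound 5 and 0 to 1 under compound 6, and 0 to 1 for compound 6 against 5. The lowest counts for the compounds against DMSO came without replicate 2 of DMSO. Without replicate 1 of DMSO they were 390, 77 and 5, without replicate 2 of compound 4 152, without replicate 1 of compound 5 118 and without replicate 2 of compound 6 4, each for that compound. For compound 6 against 5, 0 genes passed without replicate 1 of compound 6. Without a filter there were 2383, 2431, 1355, 750, 990 and 259 genes, in the order above, and 5 of the 9 genes under compound 6, and 2, 4 and 5 between compounds. With DESeq2 there were 518 for compound 6 and 194, 364 and 59 between compounds, and 2 of the 9 genes under compound 6, and 1 and 2 for compound 4 against 5 and 6 against 5. With DESeq2's size factors compound 6 had 47 genes and 0 of the 9. With at least 10 counts in every sample there were 198 for compound 6, 65 for compound 4 against 5 and 5 for compound 4 against 6, and 1 of the 9 genes for compound 6 against 5. In fits of the 4 samples compared there were 1023 for compound 6, 10 for compound 4 against 5 and 49 for compound 6 against 5. With the replicate block there were 128, 269 and 1 genes between compounds (4 against 5, 6 against 5, 4 against 6), and 1 of the 9 genes for compound 6 against 5. Beyond the calls named in the report, the block changed no call of the 9 genes. Without either replicate number each group has 1 library and no residual degrees of freedom, so those fits gave values with no test. The cause of these differences was not tested. No called change of the 9 genes reversed. The common biological coefficient of variation was 0.122, and 2 libraries a group limit what can be called.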
